A study of Mus musculus with 7 samples.

Results

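Malat1, Neat1, Gas5, Snhg1, Snhg3, Snhg5, Snhg6, Snhg8, Snhg12 and Zfas1 are long noncoding RNAs that many mammalian cells express. Their levels were examined in hematopoietic stem cells (HSCs) with and without the chromatin protein DEK. The 10 genes were taken by symbol from a deposited table of 33298 genes, and each symbol matched 1 row. RNA sequencing had been done on bone marrow HSCs of mice at 12 weeks of age under homeostatic conditions, and the labels call the cells quiescent. About 800 cells per library were sorted as negative for lineage markers and CD48 and positive for Sca-1, c-Kit and CD150, and polyadenylated RNA was amplified with the Smart-Seq V4 Ultra Low Input kit. The controls, Dek_fl, were Dekfl/fl mice without a recombinase (4 libraries). The design text speaks of 3 per group, while the labels list 4 controls, and all 4 were used. The knockouts, Dek_cKO, were Dekfl/fl,Tie2-Cre mice (3 libraries), so both groups carried floxed Dek alleles. Tie2-Cre acts in endothelial as well as hematopoietic cells, and deletion was therefore not limited to HSCs. The labels name no strain and do not say whether libraries stem from different animals, so a p-value here speaks only of the spread among libraries. In RNA from pooled cells, fewer cells with a transcript and less of it per cell cannot be told apart.

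Most of these genes are hosts of small nucleolar RNAs (snoRNAs), the guides that direct chemical modification of ribosomal RNA. A host transcript is spliced, the snoRNAs are trimmed out of its introns, and the remaining exons often carry short reading frames and are degraded by nonsense-mediated decay when they are translated. Many host genes start with a tract of pyrimidines, the 5′ terminal oligopyrimidine sequence, which links their transcripts to growth signals as it does those of ribosomal proteins. Malat1 and Neat1 belong to another class. Both stay in the nucleus, Malat1 in the splicing speckles and Neat1 as the scaffold of the paraspeckles. The end of Malat1 is not a usual poly(A) tail. RNase P cuts the transcript and releases a tRNA-like fragment, and the new end folds into a triple helix of U-rich motifs and a genomically encoded A-rich tract.

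The end of Malat1 is shown because the libraries were made from polyadenylated RNA while this transcript is known to lack a usual poly(A) tail. The stretch is bases 6582 to 6705 of the longest Malat1 transcript (6983 bases) in GENCODE M21, at chr19:5795968-5796091 of GRCm38 on the minus strand. Capitals mark a pair of U-rich motifs (as T) and a run of 12 A.
Malat1: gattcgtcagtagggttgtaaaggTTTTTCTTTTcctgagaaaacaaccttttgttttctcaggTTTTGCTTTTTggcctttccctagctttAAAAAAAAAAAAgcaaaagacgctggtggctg
The annotated transcript continues for 298 bases beyond the run. Runs of 12 or more A also lie inside the longest annotated transcripts of Snhg12 (12 A) and Zfas1 (17 A). In Neat1 the longest run is 7. The length of a run does not tell how a transcript ends or how well it was captured. Of 48631 genes whose longest transcript has at least 200 bases, 6.37% hold such a run.

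The starts of 5 snoRNA hosts are shown so that those with and without a pair of start features can be compared. RefSeq sequences of GRCm38.p6 were at hand for 8 of the 10 genes, and Neat1 and Snhg6 are named only. Each line gives 40 bases before and 20 bases from the annotated start, on the strand of the gene. Capitals mark TATAAA or TATATA between 45 and 15 bases before the start, and a C followed by 4 or more pyrimidines that begins within 10 bases of it. They lie at chr1:161035126-161035185 (plus strand) for Gas5, chr3:123508317-123508376 (minus) for Snhg8, chr4:132308638-132308697 (plus) for Snhg12, chr9:88522878-88522937 (minus) for Snhg5 and chr19:8723447-8723506 (plus) for Snhg1.
Gas5: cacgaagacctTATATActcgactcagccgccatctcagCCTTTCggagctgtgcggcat
Snhg8: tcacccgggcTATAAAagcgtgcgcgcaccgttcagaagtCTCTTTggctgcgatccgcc
Snhg12: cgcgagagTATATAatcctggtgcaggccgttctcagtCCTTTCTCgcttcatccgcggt
Snhg5: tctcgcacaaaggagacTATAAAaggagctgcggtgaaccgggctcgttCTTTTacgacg
Snhg1: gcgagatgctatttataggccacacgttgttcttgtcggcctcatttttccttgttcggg
Both features were found in Gas5, Snhg8, Snhg12 and Snhg5, and the tract alone in Snhg3. Neither was found in the windows searched for Snhg1, which is printed beside them, Zfas1 and Malat1. Only the strand of the gene was searched. Of 32851 RefSeq promoter entries, 2.96% hold TATAAA or TATATA in that position and 30.72% hold the tract, which is therefore common. Gas5 has 2 entries, and the other one, at an upstream start, holds neither.

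The values are FPKM, fragments scaled to transcript length and library size. Reads behind them were recovered from the values, with library totals from 4209152 reads (Dek_fl 1) to 26951515 reads (Dek_fl 3). All 70 values of the 10 genes stood for whole numbers of reads. Of these values 5 are listed at 0, and those of Snhg12 are whole at a length fitted to make them so. Dek_fl 4 stood apart, with 8575 genes above 0 against 14291 to 19950 in the others, and with 101 of the 1810 genes that averaged 50 FPKM or more listed at 0 against 9 to 45. Dek, examined as a check of the labels, was at 77.0, 118, 143 and 26.05 FPKM in the controls and at 9.60, 8.404 and 12.7 FPKM in the knockouts. Every knockout value lay below every control value (log2 difference -2.81, SE 0.962, limma unadjusted p = 0.00853, adjusted p = 0.9999). An exact two-sided permutation test of the group means in FPKM gave p = 0.0571, with 0.0286 as the smallest possible. The value in Dek_cKO 3 stands for 405.8 reads, which is not whole. A value 10 times as high, 126.6 FPKM, would lie within the range of the controls. The source of the deposited value is not given in the sources used here, so it is a weak check of the label of that library. Without Dek_cKO 3 the log2 difference was -2.96 (SE 1.09). Of 14 HSC markers all reached 1 FPKM in at least 1 library, among them Kit (59.4 to 267 FPKM) and Ly6a, which encodes Sca-1 (88.7 to 310 FPKM). Others were lower, with Tek at 0 to 8.28, Mecom at 0 to 11.6, Hoxb5 at 0 to 4.38 and Fgd5 at 0.0654 to 9.76 FPKM. The bar of 1 FPKM in 1 library is low. It was also met by 4 of 4 progenitor, 6 of 7 erythroid and 4 of 6 B cell markers. Of T and NK cell markers 2 of 6 met it, and of endothelial and stromal markers 3 of 6. The transcript of CD150, Slamf1, was at 0 to 1.80 FPKM, and that of CD48, which the sort excluded on the surface, was at 4.10 to 206 FPKM. Summed markers ranged over libraries from 285 to 774 FPKM for progenitors, 0 to 69.2 for B cells, 34.9 to 1345 for T and NK cells, 28.5 to 140 for erythroid cells and 4.31 to 30.7 for endothelial and stromal cells. Nkg7 made up nearly all of the T and NK sum, which was highest in Dek_cKO 3, with Cd3d at 0 throughout, and Cd79b made up most of the B cell sum where it was above 0.

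Levels of the 10 genes spanned a wide range. By median over the 7 libraries the order was Malat1 (646 FPKM), Gas5 (247), Snhg5 (41.8), Snhg8 (33.0), Snhg1 (23.9), Snhg6 (23.6), Snhg12 (17.4), Zfas1 (14.4), Neat1 (1.73) and Snhg3 (listed at 0). Neighbours in this order were compared within libraries on log2(FPKM + 1) by an exact two-sided sign-flip permutation test, with 9 pairs compared and 0.0156 as the smallest p possible. Malat1 exceeded Gas5 in 7 of 7 libraries by 1.61 ± 1.23 (SD) on the log2 scale (exact p = 0.0156, adjusted p = 0.0469). Gas5 exceeded Snhg5 by 2.57 ± 1.42 and Zfas1 exceeded Neat1 by 2.43 ± 1.2001, each in 7 of 7 libraries with the same p-values. The 5 pairs between Snhg5 and Zfas1, and Neat1 against Snhg3, did not differ beyond their spread (adjusted p of 0.211 to 0.922, exact permutation). Pairs that are not neighbours in the order were not compared. The order was taken from these same 7 libraries, so the p-values do not test an order fixed beforehand.

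**Figure D1:**
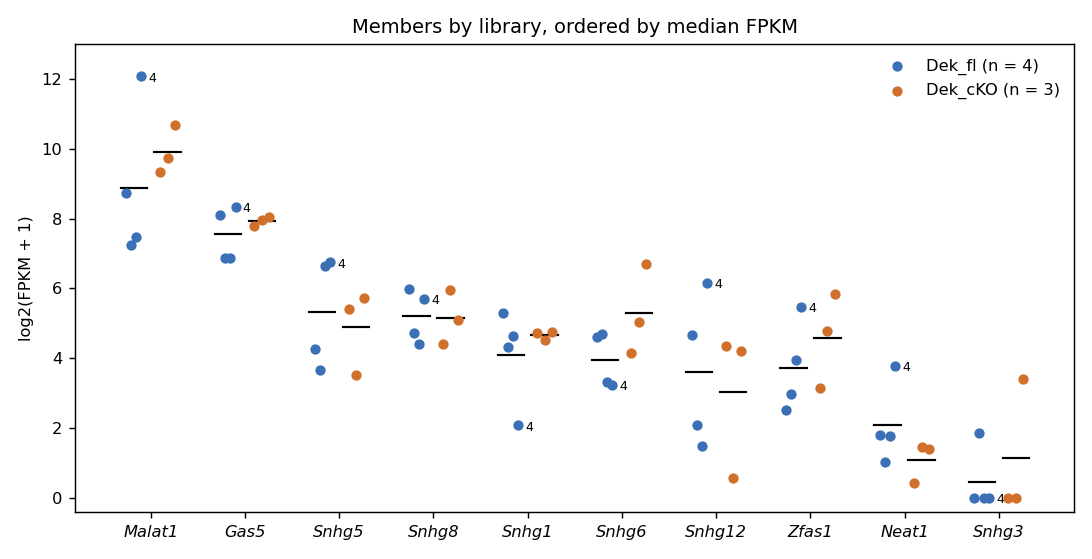
Level of each gene on the log2(FPKM + 1) scale in every library, ordered by median FPKM, with Dek_fl in blue (n = 4), Dek_cKO in orange (n = 3), group means as bars and Dek_fl 4 marked 4. Malat1 and Gas5 lie above the other genes, and Neat1 and Snhg3 have the lowest medians. Dek_fl 4 is the highest Dek_fl point for Malat1, Gas5, Snhg5, Snhg12, Zfas1 and Neat1.

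FPKM divides by a length, and some of this order depends on that length. The deposited values are whole reads at the longest annotated transcript for 9 of the 10 genes, and at 933 bases for Snhg12, whose longest annotated transcript has 1538. Gas5 has 25 annotated transcripts of 346 to 2556 bases, and its values use 2556, so that a level for the short spliced forms would be higher. Neat1 uses 20771 bases, the length of the long form, although a short form shares its start, and the table does not separate them. By share of reads Neat1 ranked 5th rather than 9th of the 10, and Zfas1 ranked 6th rather than 8th. The excess of Zfas1 over Neat1 in FPKM therefore depends on the lengths used.

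Malat1 (ENSMUSG00000092341, chromosome 19, 5795690 to 5802672, minus strand, a single exon in its longest transcript) held most of the reads of the group. It measured 422, 150, 176 and 4328 FPKM in the controls and 646, 853 and 1629 FPKM in the knockouts. The groups overlapped through Dek_fl 4 alone, the highest of the 7, while the other 3 controls were lower than every knockout library. In reads, Malat1 made up 0.294%, 0.105%, 0.123% and 3.02% of the Dek_fl libraries and 0.451%, 0.596% and 1.14% of the Dek_cKO libraries. The widest 95% Wilson interval, 3.01% to 3.04% in Dek_fl 4, is narrower than the difference between any libraries other than Dek_fl 2 and Dek_fl 3, whose own intervals do not overlap. Such intervals cover counting error only, since amplified reads are not independent molecules. Malat1 ranked 7th by FPKM in Dek_fl 4, 155th to 533rd in the other controls and 30th to 56th in the knockouts. In Dek_fl the highest value was 28.8 times the lowest, and in Dek_cKO 2.52 times.

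Other measures of the libraries moved with Malat1. Transcripts of the mitochondrial genome took 3.26%, 4.24%, 2.70% and 11.4% of FPKM in Dek_fl and 5.29%, 6.83% and 6.26% in Dek_cKO. The gene with most FPKM, Gm23935, took from 8.26% (Dek_cKO 1) to 31.4% (Dek_fl 1), so these shares have unlike denominators. The 4 libraries with most Malat1 were also the 4 with most mitochondrial transcripts. Dek_fl 4 had the most of both and the fewest genes detected. The part of these measures in the Malat1 levels was not tested.

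**Figure D2:**
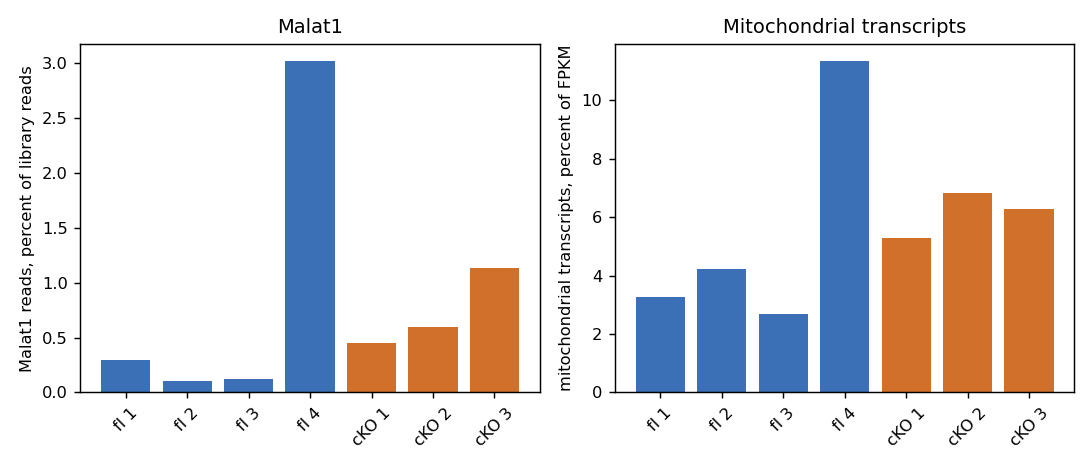
Malat1 reads as a percent of all reads (left) and mitochondrial transcripts as a percent of FPKM (right) in each of the 7 libraries, 1 bar per library. Dek_fl 4 is highest in both panels (3.02% and 11.4%), and the 3 Dek_cKO libraries lie above Dek_fl 1 to 3 in both.

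On the log2(FPKM + 1) scale the Malat1 difference, knockout minus control, was 1.04 (SE 0.933, 95% interval -0.99 to 3.06) by limma, with an adjusted p of 0.9999 over 10260 genes. The arithmetic means lay the other way, at 1269 ± 2043 FPKM (SD, n = 4) for controls and 1043 ± 518 FPKM (SD, n = 3) for knockouts. Without Dek_fl 4 the difference was 2.103 (SE 0.502, interval 1.03 to 3.17) with an unadjusted p of 0.000791 and an adjusted p of 0.826 by limma. That omission takes out the only control above any knockout library, so its p-value is no support for a difference. Some other omissions made the difference smaller, 0.49 without Dek_fl 2, 0.57 without Dek_fl 3 and 0.66 without Dek_cKO 3. In the fit without Dek_fl 4, 5.53% of 9979 genes had an unadjusted p under 0.05. Groups did not overlap in 10.8% of them, 4.56% with Dek_cKO higher. The median log2 difference of all genes was -0.11 in that fit and 0.05 with Dek_fl 4.

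Neat1 (ENSMUSG00000092274, chromosome 19, 5824708 to 5845478, minus strand) was low in FPKM throughout, at the length of its long form. How far either of its forms was captured was not examined. It measured 2.47, 1.03, 2.42 and 12.8 FPKM in the controls and 0.348, 1.73 and 1.63 FPKM in the knockouts, for 43 to 1356 reads per library. Dek_fl 4 was again the highest, and the other libraries overlapped between groups. Its difference on the log2 scale was -1.003 (SE 1.13; -0.44 without Dek_fl 4; limma adjusted p = 0.9999). Malat1 lies close by on the same chromosome and strand, and both reached their highest level in Dek_fl 4. Gas5, Snhg5 and Snhg12, on other chromosomes, were highest in that library too. Frmd8os, which starts 145 bases from Neat1 on the opposite strand, was at 4.53 FPKM in Dek_fl 3 and listed at 0 elsewhere.

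Gas5 (ENSMUSG00000053332, chromosome 1, 161034422 to 161038539, plus strand) was the steadiest of the group. It is named for its rise in growth-arrested cells and holds 10 snoRNA entries in M21, of which a pair near the same place carries 1 name, Snord80. It measured 273, 117, 116 and 324 FPKM in the controls and 219, 247 and 265 FPKM in the knockouts. The knockout libraries lay within the range of the controls, where Dek_fl 2 and 3 formed a low pair and Dek_fl 1 and 4 a high pair. Controls averaged 208 ± 107 FPKM (SD, n = 4) and knockouts 243 ± 23.1 FPKM (SD, n = 3). The difference was 0.38 on the log2 scale (SE 0.569, interval -0.81 to 1.57; limma adjusted p = 0.9999; 0.155 without Dek_fl 3, 0.156 without Dek_fl 2 and 0.65 without Dek_fl 4). Only 2.09% of the genes tested had a smaller SE. Zbtb37, on the opposite strand, overlaps Gas5 with 0 shared exon bases and was at 0.0204 to 2.11 FPKM.

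Snhg1 (chromosome 19, 8723475 to 8726443, plus strand) holds 8 snoRNA entries. It measured 38.5, 19.1, 23.9 and 3.24 FPKM in the controls and 25.2, 22.1 and 25.8 FPKM in the knockouts. Dek_fl 4, where Malat1 and Neat1 were highest, held the lowest value of Snhg1, from 40 reads, and the other 6 libraries lay within 19.1 to 38.5 FPKM. The difference was 0.57 (SE 1.14), and it was -0.09 without Dek_fl 4 (limma adjusted p = 0.9999 and 0.994). Slc3a2, a subunit of amino acid transporters, starts 106 bases away on the opposite strand. It measured 8.78, 38.8, 63.0 and 22.7 FPKM in the controls and 34.3, 3.05 and 66.6 FPKM in the knockouts, a log2 difference of -0.38 (SE 1.18; limma adjusted p = 0.9999).

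Snhg5 (chromosome 9, 88521050 to 88522929, minus strand), host of the paired snoRNAs Snord50a and Snord50b, was at 18.1, 11.8, 98.4 and 107 FPKM in the controls. Among knockouts it reached 41.8, 10.4 and 52.4 FPKM, with values spread across the range of the controls. Its log2 difference was -0.44 (SE 1.05), with a positive sign without Dek_fl 4 (0.03) or Dek_cKO 2 (0.25). Snhg8 (chromosome 3, 123507552 to 123508404, minus strand), host of Snora24, measured 62.5, 25.5, 20.2 and 51.0 FPKM in the controls and 20.1, 61.5 and 33.0 FPKM in the knockouts. Both groups had nearly the same range, and the means were 39.8 ± 20.2 FPKM (SD, n = 4) and 38.2 ± 21.2 FPKM (SD, n = 3). Its log2 difference was -0.05 (SE 0.928, interval -1.99 to 1.88; limma adjusted p = 0.9999), a sign that turned under 7 of 18 alternatives.

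Snhg12 (chromosome 4, 132308623 to 132311024, plus strand), within which M21 has 5 snoRNA entries, a pair of them named Snora16a, varied most. It measured 24.4, 3.29, 1.83 and 70.4 FPKM in the controls and 19.5, 0.485 and 17.4 FPKM in the knockouts. The lowest value, in Dek_cKO 2, rests on 2 reads of 4422645 (95% Wilson interval 1.24e-05% to 0.000165%), and the highest, in Dek_fl 4, on 297 reads. The log2 difference was -0.57 (SE 1.45), the largest SE of the group, and it was 0.67 without Dek_cKO 2 and 0.28 without Dek_fl 4 (limma adjusted p = 0.9999, 0.9997 and 0.991).

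Snhg6 and Zfas1 were highest in a knockout library. Snhg6 (chromosome 1, 9941959 to 9944118, minus strand), host of Snord87, measured 23.6, 24.7, 8.96 and 8.4025 FPKM in the controls and 16.7, 31.6 and 103 FPKM in the knockouts. Zfas1 (chromosome 2, 167062934 to 167065862, plus strand), which hosts snoRNAs of the Snord12 family, measured 4.75, 6.83, 14.4 and 43.2 FPKM in the controls and 7.88, 26.3 and 55.7 FPKM in the knockouts. In both genes Dek_cKO 3 was the highest and Dek_cKO 1 lay within the controls. The log2 difference was 1.33 for Snhg6 (SE 1.09, interval -0.95 to 3.61; 0.62 without Dek_cKO 3) and 0.86 for Zfas1 (SE 1.21, interval -1.67 to 3.39; 0.23 without Dek_cKO 3), each with a limma adjusted p of 0.9999.

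Dek_cKO 3 also differed in markers of another lineage. The 8 myeloid markers, of which 5 reached 1 FPKM in some library, summed to 7247 FPKM in Dek_cKO 3, to 104 and 445 FPKM in the other knockouts and to 128 to 1550 FPKM in Dek_fl. Elane, a protease of early granulocytes, was at 5393 FPKM there, against 0 to 984 in the other libraries, while Ly6g and Itgam, which mark mature myeloid cells, stayed below 1 FPKM in every library. S100a8 and S100a9, abundant in neutrophils, were at 245 and 67.8 FPKM in Dek_cKO 3 and at 11.4 to 240 and 1.83 to 137 FPKM in the others. The part of these transcripts in the levels of Snhg6 and Zfas1 was not tested. At its start Zfas1 overlaps 82 exon bases of Znfx1 on the opposite strand, and Znfx1 was at 0.0885 to 1.72 FPKM in Dek_fl and 1.54 to 9.27 FPKM in Dek_cKO (log2 difference 1.66, SE 0.895; limma adjusted p = 0.9999).

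Snhg3 (chromosome 4, 132348014 to 132353686, minus strand), host of Snora73a and Snora73b, was listed at 0 in 5 of the 7 libraries. It was at 2.64 FPKM in Dek_fl 2, from 24 reads, and at 9.61 FPKM in Dek_cKO 3, from 70 reads. A count of 0 allows up to 3 reads, which is 0.192 FPKM in Dek_fl 3 and 0.868 to 1.23 FPKM in the other 4. With values in 2 libraries it did not pass the filter of 1 FPKM in 3 libraries and was not tested. Rcc1, a protein-coding gene of mitosis and nuclear transport on the same strand, starts 81 bases away and shares 135 of the 986 exon bases of Snhg3. Rcc1 measured 35.7, 72.3, 51.1 and 0.190 FPKM in the controls and 90.8, 17.5 and 63.2 FPKM in the knockouts. Of the 581 bases of the Snhg3 transcript that the values use, 497 are also exon bases of Gm17300 on the other strand. How shared reads were assigned is not given in the sources used here.

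**Figure D3:**
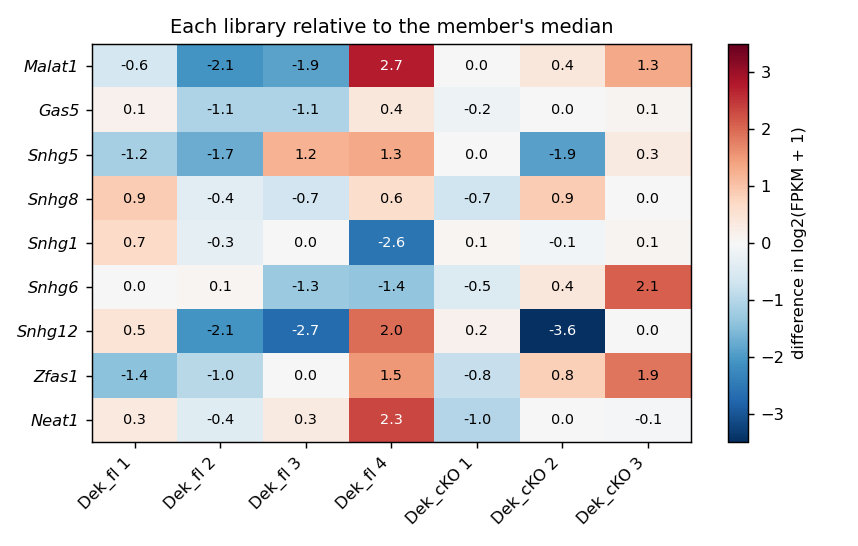
Difference of each library from the gene's median over 7 libraries, on the log2(FPKM + 1) scale, for the 9 genes tested, with red above and blue below the median. Dek_fl 4 holds the highest value of 5 genes and the lowest of 2, and the rows do not share a pattern by group.

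Set side by side, the 9 genes that could be tested did not rise or fall as 1 group across libraries. Dek_fl 4 held the highest value of 5 of them (Malat1, Neat1, Gas5, Snhg5 and Snhg12) and the lowest of 2 (Snhg1 and Snhg6). Dek_fl 1 held the highest of Snhg1 and Snhg8, and Dek_cKO 3 those of Snhg6 and Zfas1. Of 32 snoRNA entries inside the 8 hosts, 1 was measured here. It was Snord87, named after its values were seen, at 41.6 FPKM in Dek_cKO 2 and listed at 0 in the other 6 libraries, and the others were not analysed here. Mcmdc2, which overlaps Snhg6 on the opposite strand, was at 0 to 0.228 FPKM.

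The comparison the labels state is Dek_cKO against Dek_fl. None of the 9 genes was called by limma at an adjusted p of 0.05, as was none of all 10260 genes tested (0%), where the smallest adjusted p was 0.9999. None had an unadjusted p under 0.05, against 3.94% of all genes (404 genes), and in none did the groups stay apart, against 4.94%. The log2 difference was positive in 5 and negative in 4, where it was positive in 52% of all genes. The median SE of all genes was 1.25, so that at this spread the 95% intervals of the 9 genes reached from -3.59 at the lowest to 3.61 at the highest. These intervals are not adjusted for the number of genes tested. Even Dek was not called (limma adjusted p = 0.9999), with a log2 difference of -2.81 that includes the Dek_cKO 3 value that is not whole. Several-fold differences could therefore go uncalled, and equal levels are not shown.

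**Figure D4:**
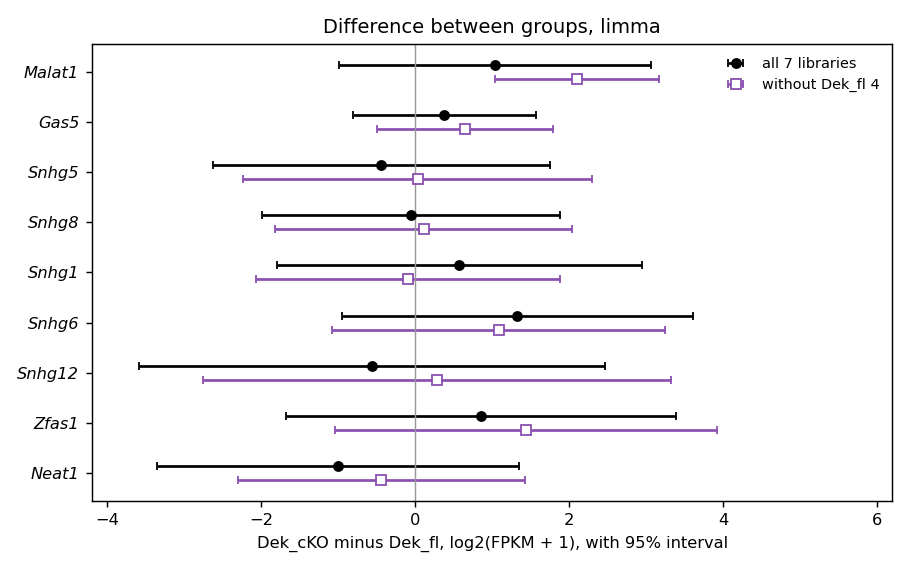
Difference of the knockouts from the controls in log2(FPKM + 1) with 95% limma intervals, with all 7 libraries (black) and without Dek_fl 4 (purple). With all libraries each interval holds 0, and without Dek_fl 4 that of Malat1 runs from 1.03 to 3.17. Dek_fl 4 is the only control through which the groups overlapped in Malat1.

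Genes that act with these RNAs were read from lists, with the first 2 tested members of each named whatever their values. No member of any list was called in either direction by limma. An unadjusted p under 0.05 was found for 1 member each of the snoRNP (16 tested), decay (15), paraspeckle (16) and speckle (16) lists. The other 3 lists had none, and the share over all genes tested was 3.94%. Here the median log2 difference of all genes was 0.05. Of 17 other noncoding hosts 6 were tested, 4 positive and 2 negative, with a median of 0.36. Snhg4 measured 18.4, 33.2, 8.73 and 0.976 FPKM in the controls and 74.5, 138 and 5.88 FPKM in the knockouts (log2 difference 1.97, SE 1.32), and Snhg15 had -0.55 (SE 1.01). Of 20 further lncRNAs 8 were tested, 3 positive and 5 negative, with a median of -0.25. Kcnq1ot1, the antisense RNA of an imprinted locus, had 0.21 (SE 1.203), and Tug1 had -1.60 (SE 1.22).

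Protein-coding genes that host snoRNAs, 31 tested, were 21 positive and 10 negative, with a median of 0.21. The ribosomal protein genes Rps3 and Rpl13a had -0.28 (SE 0.476) and 0.95 (SE 1.12). The proteins that bind and mature snoRNAs, 16 tested, were 9 positive and 7 negative, with a median of 0.27. Fbl, the methyltransferase of the C/D particles, measured 111, 82.4, 106 and 42.0 FPKM in the controls and 44.96, 117 and 82.3 FPKM in the knockouts, a difference of -0.08 (SE 0.725). Nop56, a core protein of the same particles and itself a host, had 1.54 (SE 0.828). The factors of nonsense-mediated decay, 15 tested, were 10 positive and 5 negative with a median of 0.28, and Upf1 and Upf2 had -0.65 (SE 1.42) and -0.73 (SE 1.27).

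Proteins of the nuclear bodies around Neat1 and Malat1 showed no call. Paraspeckle proteins, 16 tested, were 12 positive and 4 negative, with a median of 0.16. Nono had -0.81 (SE 0.676). Sfpq, its partner, measured 9.23, 5.40, 8.15 and 67.3 FPKM in the controls and 126, 190 and 111 FPKM in the knockouts, with no overlap and a log2 difference of 3.30 (SE 0.984, unadjusted p = 0.00321, limma adjusted p = 0.9999). At its annotated length of 3465 bases its values in Dek_fl 1, 2 and 3 stand for 134.6, 293.2 and 761.4 reads, which are not whole. Its other 4 values are whole, and the source of the 3 values is not given in the sources used here. Such genes are rare, 42 of 7018 assessed (0.6%). Speckle proteins, 16 tested, were 5 positive and 11 negative with a median of -0.17, and Son and Srrm2, which build the speckle core, had 0.75 (SE 1.003) and 0.499 (SE 0.847).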

How the data were processed

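The deposited table holds FPKM made by the authors, 1 column per library, mapped to groups by title, with 0 columns left unmapped. The build mm10 and the tools HTSeq, Cufflinks 2.1.1 and Bowtie 0.12.9 come from the submitters' processing notes. What each tool did, the strand setting and the gene models are not given there. Reads were recovered as FPKM times transcript length (GENCODE M21) times library total, with the smallest total that made values whole, allowing for the 4 printed decimals and 0.003 reads more. Apart from the members and Dek, which were examined whatever their reads, only genes with 30 reads or more in at least 5 libraries were assessed.

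Groups were compared on log2(FPKM + 1) by limma 3.58.1 (R 4.3.3), with trend and robust moderation and the group alone. Genes with 1 FPKM or more in at least 3 libraries were tested, two-sided, with Benjamini-Hochberg adjustment over all of them. FPKM + 1 understates changes of low genes. Members and lists were chosen with earlier results of these data known. The text names all 10 members, Dek, overlapping genes and opposite-strand genes starting within 1000 bases that were measured here, and the first 2 tested members of each list. Markers of B, T and NK, erythroid, progenitor, endothelial and stromal cells were read too. Python 3.11.15, scipy 1.17.1 and matplotlib 3.10.9 were used.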

Additional observations from a re-analysis of the deposited data

Results flagged for a closer look

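In the 4 Dek_fl libraries a single value lay far from the others in 2 of the 10 genes, by Dixon's criterion on FPKM. Chance meets it in about 1 group in 20 when values are normally distributed. FPKM are skewed, so the rate here is not known. The criterion was not applied on the log2 scale, where high values lie less far out. Malat1 in Dek_fl 4 was at 4328 FPKM, and its gap to the next library made up 0.935 of the range. Neat1 in Dek_fl 4 was at 12.8 FPKM, with a gap of 0.878 of the range. Snhg3 in Dek_fl 2 was at 2.64 FPKM, with 0 listed in the other 3 controls, so that the criterion was met by any value above 0. Malat1 and Neat1 share a library, the one with the fewest genes above 0 (8575).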

How the results depend on the processing

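The count of genes called, 0, and of members called, 0, held under all 18 alternatives. These were pseudocounts of 0.5 and 0.1, no filter and a filter of 5 FPKM, 3 scalings, array weights, plain eBayes moderation, a replicate block, voom on recovered reads and leaving out each library. The differences of Malat1, Gas5, Snhg6, Zfas1 and Neat1 kept their sign in every alternative that tested them, Malat1 between 0.49 and 2.49. Signs turned for Snhg8 with quantile normalization (0.084), array weights (0.15) and voom (0.31), and for Snhg12 with array weights (0.597) and voom (0.091). With the replicate block, in which Dek_fl 4 has no partner and drops out, they turned for Snhg1 (-0.094), Snhg5 (0.034), Snhg8 (0.11) and Snhg12 (0.28), and Malat1 had 2.103 (limma adjusted p = 0.970). Deviations of libraries with the same replicate number correlated at -0.0299, -0.0728 and 0.0446 across genes, so no shared deviation was visible. The labels state no pairing, and correlations this low cannot exclude one. Leaving out 1 library gave -0.094 to 0.98 for Snhg1, -0.99 to 0.25 for Snhg5, -0.46 to 0.32 for Snhg8 and -1.27 to 0.67 for Snhg12. The cause of these turns was not tested. Snhg3, tested only with no filter, had 0.67 (limma adjusted p = 0.8003). Snhg3 and Snhg12 rest on 94 and 800 reads in all, and where Snhg3 is listed at 0 the 3 reads that a count of 0 allows stand for 0.192 to 1.23 FPKM.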
